A study of Rattus norvegicus with 10 samples.

Results

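Transcripts from ultraconserved elements were examined in the aorta of rats given lipopolysaccharide (LPS). Ultraconserved elements are stretches of the genome that are identical between human, mouse and rat. They are named with the letters uc. and a number, and RNA copied from them is called a transcribed ultraconserved region (T-UCR). Many T-UCRs belong to non-coding RNAs or lie within introns or exons of protein-coding genes, and several have been studied as regulators of microRNAs and RNA processing in cancer, gut epithelium, liver, nerve and heart. The T-UCR probes were all non-control probes of the array whose names begin with uc., 959 of the 38804 non-control probes. They cover 480 elements numbered between 1 and 483. Of these, 479 elements have a probe ending in + and a probe ending in -, and uc.404 has the - probe alone. The files used here do not say which genomic strand each sign stands for, and no position or sequence of the elements or probes was used.

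The study compared the aorta of male Wistar rats, 8 weeks old, 24 h after an intraperitoneal injection of LPS at 10 mg/kg with that of control rats given saline. LPS is a component of the bacterial cell wall, and this endotoxaemia is a model of septic vascular injury that contains no live infection. RNA of 5 LPS rats (numbered 1, 3, 5, 6 and 7) and 5 control rats (15, 16, 17, 18 and 20) was hybridised to 10 single-colour Agilent arrays, which carry 28287 mRNA and 9374 long non-coding RNA (lncRNA) probes beside the T-UCR probes. Whole vessel was used, in which fewer cells of a type and less RNA per cell cannot be told apart.

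Levels are log2 spot intensities relative to the 75th percentile of the same array, which lay between an intensity of 190 and 453.7. Pairs of arrays were compared over the spots marked as well above background on all 10 arrays, which included 395 of the 959 T-UCR probes. There, the median squared difference between LPS rats 1 and 3 was no larger than the spot error given by the scanner software (ratio 0.986). The same held for control rats 15 and 17 (ratio 0.783), against a ratio of 3.99 for the next closest pair. Single T-UCR probes still differed within these pairs, by more than 1 on the log2 scale for 32 and 21 of the tested probes. For the levels and tests between LPS and control, the mean of each such pair entered as 1 sample, so that there were 4 samples per group, while detection counts and values on single arrays are given for all 10 arrays. The sample labels name no slide, so arrays with the same scan time were taken to share a slide. By this rule control rats 15 to 18 shared 1 slide and LPS rats 6 and 7 another. LPS rats 1, 3 and 5 shared a slide with control rat 20, and groups can be compared within a slide on this one alone. Cxcl1, a neutrophil chemokine, Il6, an inflammatory cytokine, and Lcn2, an acute-phase protein, had levels in the LPS samples (Il6 0.73 to 1.88) that lay above all control samples (Il6 -6.41 to -4.23). The array files do not pair probes with gene symbols, so markers of the vessel wall were not examined here.

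T-UCR probes were detected less often than probes for mRNA. A probe was taken as detected where the scanner software marked its spot as well above background. In the LPS rats, 705, 677, 553, 571 and 627 of the 959 T-UCR probes were detected (rats 1, 3, 5, 6 and 7). In the control rats, 577, 443, 713, 517 and 520 were detected (rats 15, 16, 17, 18 and 20). The groups overlapped, since control rat 17 had the highest count of all and LPS rat 5 lay below control rat 15. The median was 627 in the LPS and 520 in the control arrays. On every array the share of T-UCR probes detected (46.2% to 74.3%) lay below that of lncRNA probes (65.1% to 86.1%) and of mRNA probes (85.5% to 95.4%) on the same array. Of the 153 negative control spots on each array, 0 to 3 were marked as detected.

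**Figure D1:**
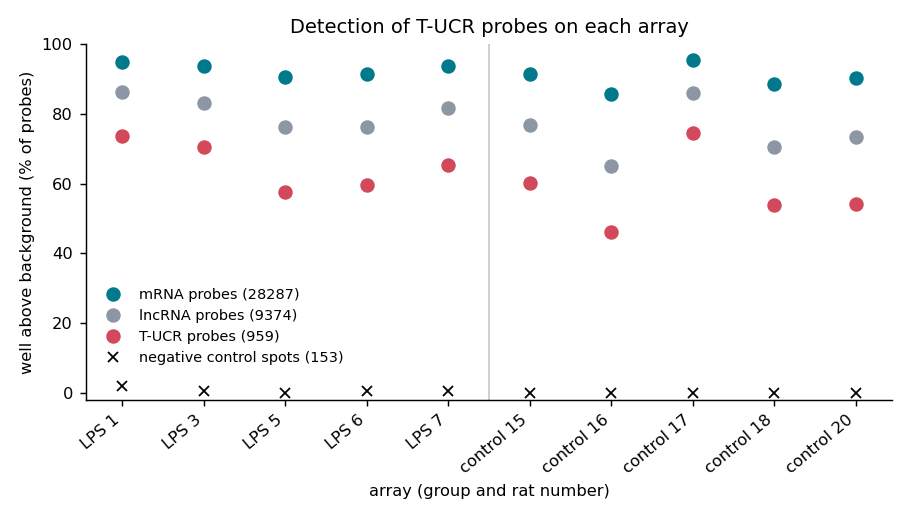
Share of probes marked well above background (y axis, %) on each of the 10 arrays (x axis, group and rat number) for mRNA, lncRNA and T-UCR probes and negative control spots. T-UCR probes sit between 46.2% and 74.3%, below the other probe classes on each array, and the LPS and control arrays overlap.

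Across the 10 arrays, 395 T-UCR probes (41.2%) were detected on all, 203 on 5 to 9, 188 on 1 to 4, and the rest (18.04%) on none. The corresponding shares of mRNA probes were 83.4% on all arrays and 2.87% on none, and those of lncRNA probes were 60.5% and 9.10%. A probe had to be detected on at least 5 arrays to be tested for a difference between the groups, which 598 T-UCR probes (62.4%) met and 361 did not. Detection on more LPS than control arrays was seen for 263 T-UCR probes (27.4%) and the opposite for 62 (6.47%). These shares were 21.9% and 4.56% for lncRNA probes, and 13.2% and 2.87% over all probes of the array. No T-UCR probe was detected on all arrays of one group and on none of the other. The 4 probes detected on all LPS arrays and on 1 control array were uc.76-, uc.218-, uc.355- and uc.358+, and the levels of their samples overlapped between the groups. Over the whole array, 129 of 38804 probes were detected on all LPS arrays and on at most 1 control array. Array brightness also differed, with a 75th percentile intensity of 224 to 453.7 in the LPS and 190 to 399 in the control arrays, and its part in the detection counts was not tested.

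The signal of T-UCR probes was low. The median T-UCR level minus the median mRNA level was -3.06 ± 0.19 (SD, n = 8 samples) on the log2 scale, and single arrays fell between -3.31 and -2.78. The size of this difference depended on the processing. Averaged over the 10 arrays it was -3.02, among the detected probes of each array -2.17, and in a setting called normexp here -1.10. That setting starts from the uncorrected median signal and its local background in place of the corrected intensity, and adds an offset of 50, which is large beside the intensities of most T-UCR probes and draws low values together. Its steps were not separated. The median T-UCR probe had an intensity of 5.33 to 20.6, and the median mRNA probe one of 52.9 to 147. The median T-UCR probe stood at the 11.5th to 14.0th percentile of the mRNA probes of its array, and 11.1% to 13.2% of T-UCR probes lay above the mRNA median. Signal depends on the probe sequence as well as on the RNA, so these values compare classes of probes and not numbers of transcripts. The median spot error was 12.8% to 25.7% of the intensity for T-UCR probes and 10.1% to 10.3% for mRNA probes.

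**Figure D2:**
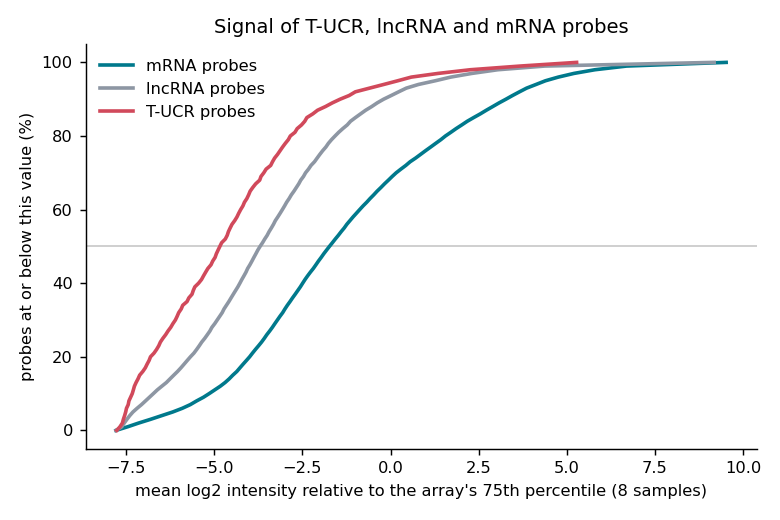
Cumulative share of mRNA, lncRNA and T-UCR probes (y axis, %) by their mean log2 intensity relative to the 75th percentile of the array (x axis, mean of 8 samples). The T-UCR curve lies left of the mRNA curve over most of the range, and the grey line marks the medians.

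A small number of T-UCR probes gave strong signal. Between 10 and 16 probes on each array exceeded the 90th percentile of the mRNA probes. The 10 probes with the highest mean level were, in descending order, uc.243+ (5.28), uc.420+ (4.79), uc.28- (4.22), uc.420- (4.19), uc.408- (4.11), uc.141- (4.09), uc.268- (4.04), the + probe of an element studied in intestinal epithelium and described further on (3.88), uc.46- (3.78) and uc.465- (3.70). All were detected on all 10 arrays, and both probes of element uc.420 were among them. Since the probes differ in sequence, this order is one of signal and neighbouring probes in it cannot be ranked by abundance. None of the 10 passed the test between the groups, and their adjusted p-values (limma, Benjamini-Hochberg) lay between 0.66 and 0.997.

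The strong probes differed widely in their spread. uc.243+ measured 4.94, 5.00, 6.63, 5.31 and 5.43 in LPS rats 1, 3, 5, 6 and 7. In control rats 15, 16, 17, 18 and 20 it measured 3.15, 7.48, 2.80, 5.27 and 4.18. The controls enclosed all LPS values, and the SD within the groups was 1.45. uc.420+ ranged from 3.14 in LPS rat 6 to 5.84 in control rat 18, and it measured 3.52 and 5.76 in LPS rats 1 and 3, whose arrays were otherwise nearly alike. uc.465-, by contrast, ranged only from 3.50 to 4.02 over the 10 arrays, with an SD within groups of 0.18.

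The question whether LPS changed the T-UCRs of the aorta was addressed with limma on the 4 LPS and 4 control samples, with p-values adjusted over all 34445 probes tested. To be called, a probe had to pass 0.05 on the adjusted p and differ by more than 1.5-fold. Of the 598 tested T-UCR probes, 1 was called higher in LPS, uc.446-, and 0 were called lower. This share of 0.167% compares with 0.659% of all tested probes, 0.604% higher and 0.0552% lower. The tested set was chosen by detection, which was more frequent on LPS arrays, so that some probes entered through the LPS group and the numbers of higher and lower probes are a description. At an unadjusted p under 0.05, 46 T-UCR probes were higher (7.69%, against 6.99% of all probes) and 5 were lower (0.836%, against 3.29% of all probes). The total of 51 moved with the setting. It fell to 24 without LPS rat 6, 23 without control rat 18 and 21 without LPS rats 1 and 3. With the authors' processed values it was 27, and after normexp 11. It rose to 65 with 10 separate arrays, 72 without control rats 15 and 17 and 73 with slide as a random block. The matching shares of all probes are not given for these settings, so these counts are not read against the array. Samples did not overlap for 21 T-UCR probes that were above control in LPS (3.51%, against 4.48% of all probes) and for 2 that were below (0.334%, against 1.68%). With the 10 arrays taken as separate samples, 3 T-UCR probes were called (uc.446-, uc.117- and uc.228-), against 1.96% of all probes. The T-UCR probes were thus called no more often than the array as a whole.

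**Figure D3:**
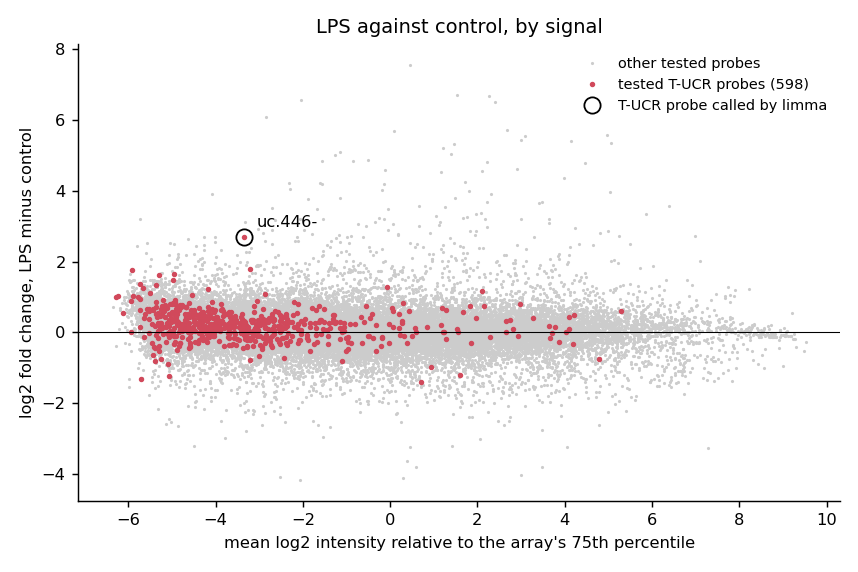
Log2 fold change, LPS minus control (y axis), against mean log2 intensity relative to the 75th percentile of the array (x axis) for the 598 tested T-UCR probes (red) over all other tested probes (grey). uc.446- (circled, 2.68) is the single T-UCR probe called by limma.

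uc.446- rose in the LPS group. Its level was -2.01, -2.28, -2.21, -1.93 and -1.77 in LPS rats 1, 3, 5, 6 and 7. It was -4.80, -6.14, -4.65, -4.46 and -3.46 in control rats 15, 16, 17, 18 and 20. The LPS values lay close together and all above the controls, which were scattered, with rat 16 lowest and rat 20 nearest to the LPS group. The spot intensities were 112.7, 65.2, 48.5, 77.7 and 108.1 in the LPS rats and 9.2, 2.7, 12.2, 9.0 and 36.4 in the controls, and the spot of control rat 16 was not well above background. The means were -2.01 ± 0.20 in LPS and -4.69 ± 1.11 in control (SD, n = 4 samples each). In limma the log2 fold change was 2.68, with a standard error of 0.48 and an adjusted p of 0.0437. The exact two-sided permutation test over the 8 samples gave p = 0.0286, the smallest that 4 against 4 samples can give. Every probe whose LPS and control samples do not overlap gives this p, so it adds nothing to the lack of overlap.

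The call of uc.446- rested close to the threshold. In the normexp setting, with its offset of 50, the log2 fold change was 0.74 with an adjusted p of 0.0931 in limma. On the slide that held both groups the log2 fold change was 1.28, which sets 2 LPS samples against control rat 20, the highest control. With slide as a fixed block in limma the same contrast gave 1.28 with an adjusted p of 0.90, in a setting that called 4 of all 34445 probes. Without LPS rat 5, LPS rat 6, LPS rat 7 or control rat 18 the log2 fold change stayed between 2.60 and 2.76 but limma's adjusted p rose to between 0.105 and 0.175. The other probe of the same element, uc.446+, was detected on 2 LPS arrays and on 0 control arrays and did not enter the test.

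Apart from uc.446-, the largest changes with samples that did not overlap were smaller and did not pass the adjusted threshold. uc.342+ measured -4.84, -4.84, -4.60, -4.86 and -4.65 in LPS rats 1, 3, 5, 6 and 7. In control rats 15, 16, 17, 18 and 20 it measured -5.78, -6.26, -5.17, -5.70 and -5.18. All LPS arrays lay above all control arrays. Since 5 LPS and 2 control arrays were above background, the probe entered the test through the LPS group, and the control mean rests largely on spots not well above background. The log2 fold change of 0.92 ± 0.25 (SE) had an adjusted p of 0.226 in limma. After normexp its direction turned, at -0.14, and the median of all tested probes was -0.10 in that setting.

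uc.117- measured -2.50, -2.58, -2.97, -2.32 and -2.64 in LPS rats 1, 3, 5, 6 and 7. Its control values were -3.50, -3.85, -3.32, -3.61 and -3.14 in rats 15, 16, 17, 18 and 20. It was detected on all 10 arrays, the groups did not overlap, and the log2 fold change was 0.88 ± 0.23 (SE, limma adjusted p = 0.200), against 0.21 after normexp. The other probe of the element, uc.117+, was also detected on all arrays, with a log2 fold change of 0.10 and overlapping groups. uc.118-, of the next element in number, had a log2 fold change of 0.74 ± 0.28 (SE, limma adjusted p = 0.404) over the 8 samples. Under normexp its direction turned, at -0.12 (median of all tested probes -0.10). It too entered the test through the LPS group, with 5 LPS and 2 control arrays detected, and on single arrays control rat 15 (-4.92) reached into the LPS values (-5.11 to -4.42). uc.118+ was detected on all arrays with a log2 fold change of -0.06.

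uc.228- measured -3.55, -4.10, -3.71, -3.42 and -3.68 in LPS rats 1, 3, 5, 6 and 7. Its control values were -4.55, -4.88, -4.57, -4.50 and -4.15 in rats 15, 16, 17, 18 and 20. LPS rat 3 and control rat 20 nearly met, and the log2 fold change was 0.86 ± 0.22 (SE, limma adjusted p = 0.170), against 0.05 after normexp. The partner uc.228+ had a log2 fold change of 0.35 with overlapping groups. Within the shared slide the differences were 0.46 for uc.342+, 0.38 for uc.117-, 0.38 for uc.228- and 0.65 for uc.118-, all smaller than over the whole set.

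Lower values in LPS without overlap were found for uc.459- and uc.414-. uc.459- measured -1.55, -0.99, -1.28, -1.98 and -1.50 in LPS rats 1, 3, 5, 6 and 7. In control rats 15, 16, 17, 18 and 20 it measured -0.69, -1.03, -1.15, -0.04 and -0.82. Single arrays of LPS rat 3 and control rats 16 and 17 crossed, while the averaged samples did not, and the log2 fold change was -0.81 ± 0.28 (SE, limma adjusted p = 0.353). uc.414- had a log2 fold change of -0.40 ± 0.23 (SE, limma adjusted p = 0.592), with controls between -0.11 and 0.21 and LPS rat 1 (0.05) inside that range. Within the shared slide the differences were -0.46 for uc.459- and -0.62 for uc.414-. Their partners differed in detection, since uc.459+ was detected on 0 arrays and uc.414+ on all 10 with a log2 fold change of -0.10.

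**Figure D4:**
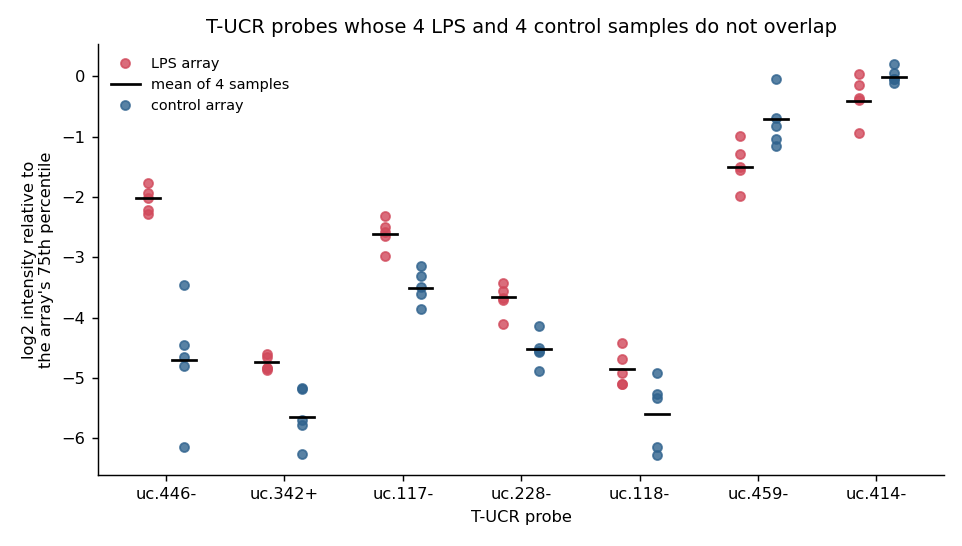
Log2 intensity relative to the 75th percentile of the array (y axis) on each of the 5 LPS and 5 control arrays for the T-UCR probes described above (x axis), with the mean of the 4 averaged samples of each group as a black line. uc.446- shows the widest gap, 2.68 between the means, and single arrays overlap for uc.118-, uc.459- and uc.414-.

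Some tested T-UCR probes had larger fold changes than these but overlapping groups, and they are named here after their values were seen. uc.247+ had a log2 fold change of 1.80 ± 1.40 (SE), uc.76- one of 1.76 ± 0.51 and uc.182+ one of 1.65 ± 0.80. They were detected on 5, 5 and 4 LPS arrays but on 3, 1 and 2 control arrays, so that these control means rest partly or mostly on spots not well above background. uc.76- entered the test through the LPS group, and its fold change is a description of signal. The lowest log2 fold change among the tested T-UCR probes was that of uc.6-, -1.42 ± 0.86. The adjusted p-values of these 4 probes in limma lay between 0.252 and 0.698. The 5 probes with lower values at an unadjusted p under 0.05 were uc.209+, uc.459-, uc.146+, uc.395- and uc.37+, with log2 fold changes from -1.31 to -0.67 and limma adjusted p-values of 0.279 to 0.483.

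In the main setting, log2 fold changes of the tested T-UCR probes were more often positive than negative. The median log2 fold change was 0.18, against 0.07 for mRNA, 0.14 for lncRNA and 0.09 for all tested probes. Positive values made up 426 of 598 (71.2%), against 59.8% of all tested probes, and 88 T-UCR probes (14.7%) exceeded 1.5-fold upwards and 14 (2.34%) downwards, against 11.4% and 6.65% of all. Without the filter on detection, 62.4% of T-UCR and 59.0% of all probes were positive, and the medians were 0.13 and 0.09. The positive shares were 54.0% and 50.6% after quantile normalisation and 56.7% and 51.2% with the authors' processed values. After normexp they were 19.6% of T-UCR and 32.3% of all probes. Dim tested probes of every class had positive medians. When all tested probes were split by mean level into 4 groups of equal size, the dimmest held 320 of the 598 T-UCR probes, and the median there was 0.24 for T-UCR, 0.21 for mRNA and 0.24 for lncRNA probes. In the next brighter group the T-UCR median was 0.12 (all probes 0.10), in the third 0.14 (all probes 0.00) and in the brightest, with 41 T-UCR probes, 0.08 (all probes 0.02). The sign of the T-UCR median changed with the processing, since the T-UCR median was 0.04 after quantile normalisation (all probes 0.01) and -0.13 after normexp (all probes -0.10), while with slide as a fixed block it was 0.26 (all probes 0.10). Relative to the median of all probes it was 0.09 higher in the main setting, 0.04 higher without the filter and after quantile normalisation, -0.03 after normexp and 0.16 higher with the slide block.

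The probe pairs of an element were compared next. Of the 479 elements with both signs, 99 had the + probe alone detected on at least 5 arrays, 87 the - probe alone and 87 neither, and in the remaining 43.0% both were detected. At detection on all 10 arrays 103 had the + probe alone, 110 the - probe alone, 175 neither and 91 both. The + and - probes were detected on at least 5 arrays in similar shares, 63.7% and 61.2%. Some elements were detected through a single probe on every array, with 24 elements having the + probe on all arrays and the - probe on none, and 30 the reverse. Among the strongest of these were uc.447+, uc.335+ and uc.354+, and uc.10-, uc.92-, uc.63- and uc.448-, whose mean levels lay between -0.65 and 0.32 while those of their partners lay between -7.55 and -6.65.

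**Figure D5:**
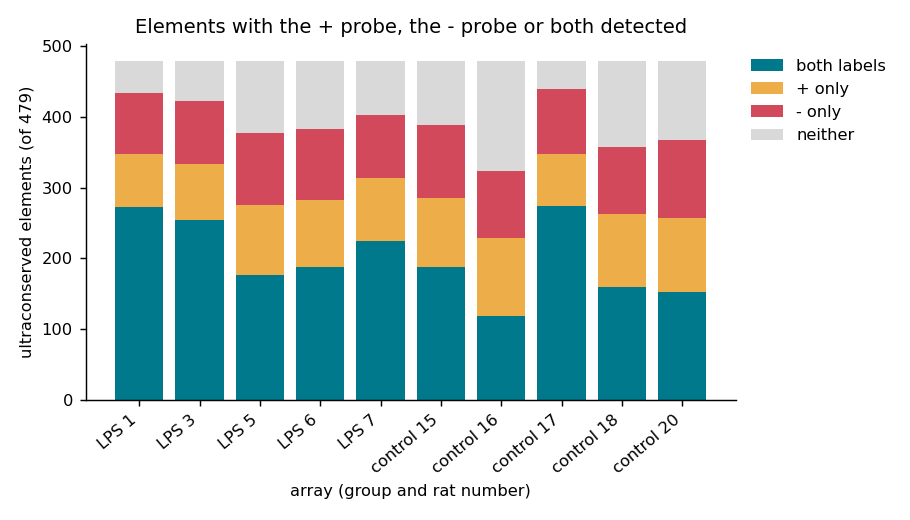
Number of the 479 paired elements (y axis) whose +, -, both or neither probe was well above background on each array (x axis, group and rat number). The count with both ranges from 119 (control rat 16) to 274 (control rat 17), and the groups overlap.

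For the elements with both probes tested, the log2 fold changes were both positive in 107, both negative in 22 and of opposite sign in 77. Their correlation was 0.10 over these elements, which share the same 8 samples. Both probes exceeded 1.5-fold upwards in 4 elements, uc.61, uc.183, uc.378 and uc.423, and downwards in 0. Of all tested T-UCR probes, 71.2% were positive and 14.7% exceeded 1.5-fold upwards. Whether the probes of an element matched more often than these shares give was not tested. The median absolute difference between the log2 fold changes of an element's probes was 0.32. The median standard error of a single fold change of T-UCR probes was 0.29.

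Elements are numbered along the human genome, so that consecutive numbers often lie near each other. Over the 8 samples, after removal of the group means, the median correlation was 0.29 for 370 pairs of tested probes with the same sign and consecutive numbers. For 1465 pairs with the same sign and 2 to 5 numbers apart it was 0.23. It was 0.16 for 376 pairs of consecutive numbers with opposite signs, 0.16 for the pairs of the same element and 0.16 for 174625 pairs more than 5 numbers apart. These pairs share arrays and brightness, and the values are given as a description. Among pairs of the same element or of consecutive numbers, the most alike were uc.310- with uc.311- (0.99) and uc.480+ with uc.481+ (0.97). Pairs further apart were not ranked. A correlation above 0.9 was found for 2483 of the pairs more than 5 numbers apart (1.42%). It was found for 10 of the pairs with the same sign and consecutive numbers (2.70%).

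A set of 20 elements with published functional studies, listed in full with the processing steps, was examined through its 40 probes. Of these, 24 were tested, 16 were detected on all 10 arrays, 6 on none, and 0 were called (0.659% of all tested probes). The unadjusted p was under 0.05 for 1 of the 24 (4.17%, against 10.3% of all tested probes). Positive log2 fold changes were found for 16 of the 24 (59.8% of all tested probes), and the values ranged from -0.77 to 1.63 with a median of 0.11 (all tested probes 0.09). The probe with the low p was the - probe of an element studied as a regulator of cell growth in liver cancer, with a level of -4.47 ± 0.48 in LPS and -6.10 ± 1.41 in control (SD, n = 4 samples each, limma adjusted p = 0.400). It was detected on 5 LPS and 3 control arrays, and the + probe of the element on none.

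The + probe of the element studied as a regulator of intestinal epithelial growth gave the strongest signal of the set. It measured 3.35, 3.20, 3.78, 3.58 and 4.35 in LPS rats 1, 3, 5, 6 and 7, and 3.53, 3.85, 3.70, 4.09 and 4.49 in control rats 15, 16, 17, 18 and 20. The groups overlapped, and the log2 fold change was -0.27 ± 0.29 (SE). The + probe of the element studied in hypoxic cancer cells had levels of 1.24 ± 0.49 in LPS and 1.23 ± 0.31 in control (SD). uc.63-, a probe of an element studied in breast and prostate cancer, was detected on all arrays with a log2 fold change of 0.24 ± 0.28 (SE). The other probe, uc.63+, was detected on none. The + probe of the element studied in cardiac hypertrophy was detected on all arrays at low signal, with -4.37 ± 0.35 in LPS and -4.26 ± 0.26 in control (SD).

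Both probes of uc.48, an element studied in sensory neurons and pain, were detected on all 10 arrays, with log2 fold changes of 0.24 ± 0.35 for uc.48+ and -0.16 ± 0.26 for uc.48- (SE). uc.73+, of an element studied in colon cancer, was detected on all arrays with a log2 fold change of 0.25 ± 0.19 (SE), and uc.73- on 2 LPS and 2 control arrays. The + probe of the element studied as a microRNA-binding transcript in lung cancer measured -3.20 ± 0.15 in LPS and -3.58 ± 0.18 in control (SD), without overlap, and had a log2 fold change of 0.38 with a limma adjusted p of 0.545. Both probes of uc.8, studied in bladder cancer, were detected on fewer than 5 arrays.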

How the data were processed

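Total RNA from the aorta of 5 LPS and 5 control rats, 1 array per rat, was labelled with Cy3 and hybridised. The authors scanned the arrays with Agilent Feature Extraction 11.0.1.1. The deposited files hold, per spot, an intensity corrected for background within the array and 0 or 1 marks for detection and spot quality. The deposited processed table holds log2 values from the authors that were already normalised between arrays by a method not given in the sources used here (array medians of 5.84). These were an alternative only. All T-UCR probes are single spots, and none was saturated or marked as an outlier.

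Each intensity was log2 transformed and the 75th percentile of its array was subtracted. Pairs of arrays that differed by no more than their spot error (ratio up to 1.05), over spots detected on all 10 arrays, were averaged. Probes detected on 5 or more of the 10 arrays were fitted with limma 3.58.1 (R 4.3.3) and adjusted by Benjamini-Hochberg over 34445 probes. Single probes were also tested with an exact two-sided permutation test. On simulated data with 200 changed probes among 34445, equal numbers shifted by 2 and by 3 on the log2 scale, the fit called 60 of the former, 85 of the latter and 6 unchanged probes. Smaller changes were not simulated. The normexp alternative used the deposited median signal and background intensity with an offset of 50. The methods' t-test was run on the same 4 samples per group and values as limma. The number of arrays limits the precision. Named probes are those called, the 5 in each direction with the largest change and no overlap, the 10 with the strongest signal, those of 20 published elements, and the other probe of an element called or not overlapping. The published elements are uc.8, uc.48, uc.63, uc.73, uc.134 (liver cancer cell growth), uc.160, uc.173 (intestinal epithelium), uc.189, uc.206, uc.283, uc.291, uc.323 (cardiac hypertrophy), uc.338, uc.339 (lung cancer), uc.346, uc.372, uc.388, uc.416, uc.454 and uc.475 (hypoxic cancer cells). The members, lists and tests were chosen with earlier results of these data known.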

Additional observations from a re-analysis of the deposited data

Results flagged for a closer look

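In the LPS group, the averaged sample of rats 1 and 3 stood apart for uc.268-, one of the 10 T-UCR probes with the strongest signal. Its level was 3.41, against 4.18 to 4.30 in the other 3 LPS samples, a gap of 0.871 of the whole range. A gap of this size arises by chance in about 1 in 20 groups, and 38 groups were examined. In the controls, uc.268- measured 3.59 and 3.68 in rats 15 and 17, whose arrays were also averaged, and 3.90 to 4.68 in rats 16, 18 and 20. Whether the cause lay in those arrays was not tested.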

How the results depend on the processing

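The number of called T-UCR probes was 1 in 4 of 12 alternatives. It was 3 with 10 separate arrays (uc.446-, uc.117- and uc.228-, adjusted p 0.0048, 0.0374 and 0.0488, limma), where 674 of all probes (1.96%) were called. It was 0 in the normexp setting (another signal column and an offset of 50, 211 of all probes), 2 with no filter on detection (uc.446- and uc.199-, 212 of all probes), and 0 with probes detected on all 10 arrays (199 of all probes). It was 0 with slide as a fixed block, on the averaged samples (4 calls in all) and on the 10 arrays (125 in all), an alternative chosen after seeing the data. The methods' t-test, on the averaged samples and not on separate rats, gave 22 without adjustment (2218 in all) and 0 after Benjamini-Hochberg adjustment (47 in all). In the settings with 0 calls, 11 (normexp), 23 (all arrays), 30 and 47 (slide block) and 40 (t-test) T-UCR probes had an unadjusted p under 0.05. With the filter on all arrays 395 T-UCR probes were tested, and in the other settings 598. The matching shares of all probes are not given, so these counts are not read against the array. With slide as a random block 471 probes were called in all. The correlation within slides that limma estimated there was negative (-0.145), so this setting made no allowance for a shift shared by a slide. Leaving out single rats or an averaged pair gave 0 to 1 T-UCR calls and 105 to 300 in all; without control rats 15 and 17 the call was uc.76-, not uc.446-. Calls in all fell to 132, 109 and 105 without LPS rats 5, 6 and 7, and to 153 without LPS rats 1 and 3.

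The median log2 fold change of T-UCR probes was -0.13 after normexp, 0.26 with slide as a fixed block, 0.31 with that block on 10 arrays, and 0.12 to 0.25 when rats were left out. uc.446- was positive in each setting that tested it (0.74 to 3.10), which leaves out the filter on all 10 arrays. Its limma adjusted p was 0.0931 after normexp, 0.90 and 0.52 with the slide block, 0.110 without LPS rats 1 and 3 and 0.108 without control rats 15 and 17, and the adjusted p of the t-test was 0.233. After normexp, uc.342+ (-0.14) and uc.118- (-0.12) turned negative, as did the median of all tested probes (-0.10). The steps of that setting were not separated, and the cause was not tested. Detection on all 10 arrays held for 395 T-UCR probes. The difference from mRNA was -1.10 after normexp, -2.17 among detected probes and -2.20 among tested ones. Elements with both probes detected numbered 91 on all arrays, 327 on at least 1, and 381 with signal positive and significant in place of well above background. No paired analysis was possible because the groups share no rat numbers. Signal over background limits what could be tested, since 361 T-UCR probes did not reach the filter on detection.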

Other observations

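Among the 21 T-UCR probes with all LPS samples above all control samples, several belonged to elements of consecutive numbers, which was noticed after the values were seen and was not tested. These were uc.117- (log2 fold change 0.88) and uc.118- (0.74), uc.341- (0.65) and uc.342+ (0.92), and uc.472+ (0.62) and uc.473+ (0.69). The neighbours uc.76- and uc.77- had log2 fold changes of 1.76 and 1.28 with overlapping samples, and limma adjusted p-values of 0.252 and 0.267. uc.76- was detected on 1 control array, so its control mean rests mostly on spots not well above background.

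A few T-UCR probes differed widely between arrays that were otherwise nearly alike. uc.335+ measured 2.20 and -1.004 in LPS rats 1 and 3, and -0.37 and 3.01 in control rats 15 and 17. Of the 598 tested T-UCR probes, 32 differed by more than 1 on the log2 scale between LPS rats 1 and 3, and 21 between control rats 15 and 17. The other 43 pairs of arrays had 26 to 220 such probes, with a median of 111.

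In 5 probes that did not enter the test, one group had no array well above background and the other was brighter than the lowest detected signal. uc.66- was at least 1.40-fold, uc.363+ at least 1.27-fold and uc.199- at least 1.21-fold higher in LPS, with 4, 3 and 4 LPS arrays detected. uc.128+ was at least 1.24-fold higher in control, with 3 control arrays detected. For uc.451+ only 1 control array was detected, so its control mean rests mostly on spots not well above background and gives no bound. Each bound sets the mean of the brighter group against, per array, the higher of the probe's own signal and the lowest signal among detected probes. The brighter mean includes arrays on which the probe was not well above background. The probes were picked for this pattern, and the number of such probes over the whole array is not given. The values therefore describe signal and were not tested as differences between the groups.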
